A study of Arabidopsis thaliana with 6 samples.

Results

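The genes described here control the making of tetrapyrroles and chlorophyll in Arabidopsis. They are *HEMA1*, *HEMA2*, *FLU*, *CHLH*, *CHLI1*, *CHLD*, *GUN4*, *PORA*, *PORB* and *PORC*, chosen by their gene identifiers, and they are 10 of the 27372 genes in the table. RNA of whole seedlings was sequenced from *fer-4*, a mutant line deficient in the receptor-like kinase FERONIA (FER), and from the wild type accession Col-0, with 3 libraries each. Seedlings of both genotypes were 7 days old, grew on MS agar in long days under moderate light, and were harvested 3 h after dawn (zeitgeber time 3). No other light intensity or time of day was measured, and *fer-4* is the only mutant line in these data. Levels are FPKM, that is, fragments scaled by transcript length and by the mapped fragments of the library.

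Tetrapyrroles are made in the plastid from glutamate by way of 5-aminolevulinic acid (ALA), and ALA synthesis is the step at which the flow into the pathway is set. Protoporphyrin IX is the branch point, where magnesium chelatase directs it to chlorophyll and ferrochelatase directs it to heme. Free intermediates such as protochlorophyllide produce singlet oxygen in light, so supply is held in check by transcription of the first genes, by the FLU protein and by the capacity of the protochlorophyllide oxidoreductases (PORs).

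*FER* mRNA was at 0.0905, 0.0270 and 0.0438 FPKM in the *fer-4* libraries, against 56.5, 62.6 and 64.6 FPKM in the Col-0 libraries, so the targeted gene followed the labels. The libraries summed to between 910619 and 1058751 FPKM, and between 21824 and 22015 genes were above 0 in each. Read counts were not used here, so the depth is unknown. Relative depth, read from the smallest values, was 0.868 to 1.014 in *fer-4* and 0.953 to 1.09 in Col-0, with Col-0 replicate 1 set to 1. These depths are rough, since outside that library each is the most common ratio, held by 11 to 36 genes. The study's methods call the 3 libraries of a genotype biological replicates, and the p-values measure the spread between them.

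Of the 10 genes, 7 fell in *fer-4* seedlings, none rose, 2 did not pass the test and 1 was not tested. The 7 became 3 without Col-0 replicate 1 or Col-0 replicate 3 and 4 without *fer-4* replicate 3. Calls over all genes tested shrank too, from 3170 that fell to 1938, 2057 and 2456 in those fits. *HEMA1* and *CHLH*, which act at the entry to the pathway and at the entry to its chlorophyll branch, fell most, to 0.308 and 0.418 of the Col-0 level. *FLU*, *CHLD*, *GUN4*, *PORB* and *PORC* fell by smaller amounts, with log2 fold changes between -0.47 and -0.28. The test was limma on log2(FPKM + 0.1) over the 19839 genes that averaged 0.5 FPKM or more, 2-sided, with Benjamini-Hochberg adjustment over all of them, and a gene is said to rise or fall at an adjusted p under 0.05. By that rule 16.0% of all genes tested fell and 18.0% rose. The median log2 fold change was -0.33 over the 9 members tested and -0.01 over all genes tested. Under a stricter rule, an adjusted p no higher than 0.01 together with a 2-fold change, 2 members were lower (2.53% of all genes tested) and 0 were higher (6.36% of all genes tested). All *fer-4* libraries lay below all Col-0 libraries for 7 of the 9 members (25.1% of all genes tested) and above them for 0 (26.1% of all genes tested). By limma, 0 members had a log2 fold change above 0 with an unadjusted p under 0.05, as 4588 of the 19839 genes tested had. In whole seedlings, fewer cells of a type and less RNA per cell cannot be told apart.

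**Figure D1:**
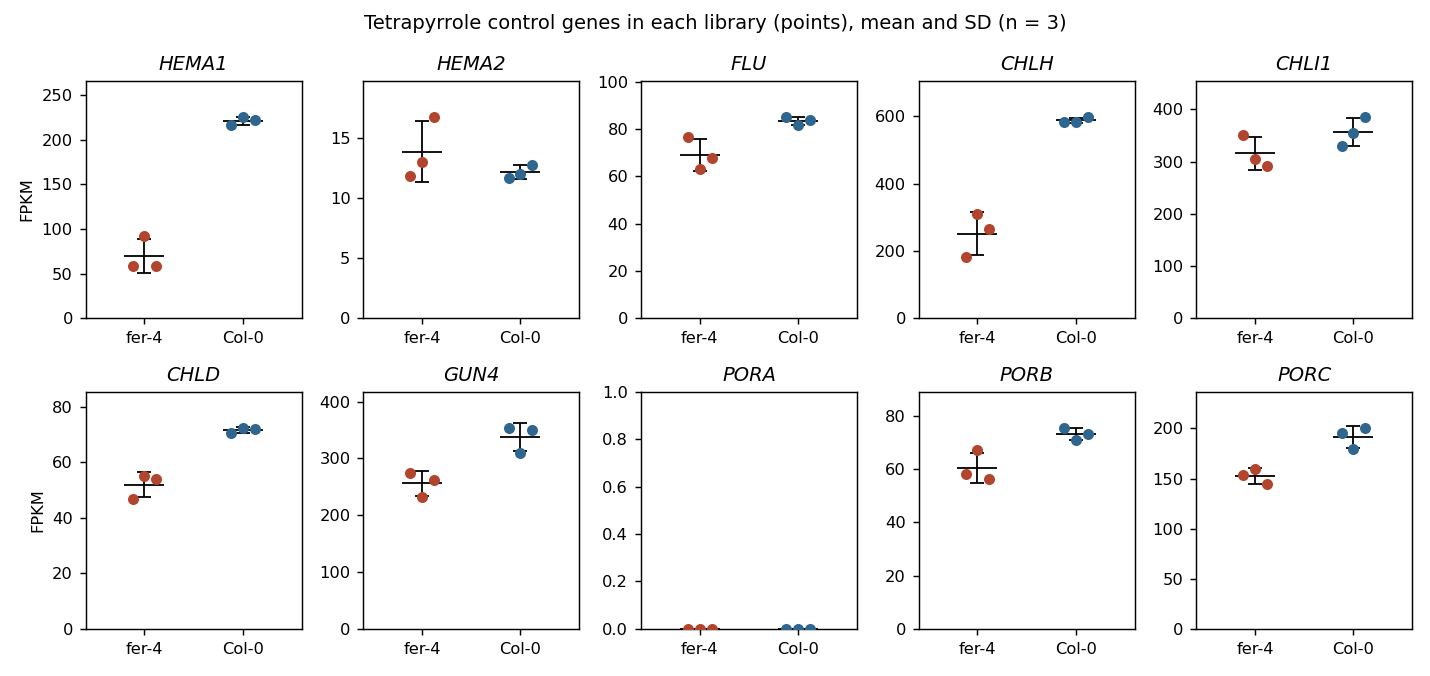
FPKM of each of the 10 genes in the 3 *fer-4* libraries (left) and the 3 Col-0 libraries (right), as points, with a dash for the mean and a bar for the SD (n = 3); each panel has its own axis from 0. *HEMA1* averaged 69.7 FPKM in *fer-4* against 222 FPKM in Col-0, *HEMA2* and *CHLI1* overlap between the genotypes, and *PORA* is listed at 0 throughout.

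*HEMA1* (AT1G58290, chromosome 1, 21623726 to 21626200 in TAIR10) encodes the main glutamyl-tRNA reductase of green tissue, the enzyme that sets the rate of ALA synthesis. It was at 58.2, 91.8 and 59.1 FPKM in the *fer-4* libraries, against 217, 225 and 223 FPKM in the Col-0 libraries. The genotypes were far apart, and *fer-4* replicate 2 lay above the other *fer-4* libraries. *HEMA1* averaged 69.7 ± 19.2 FPKM in *fer-4* and 222 ± 4.55 FPKM in Col-0 (SD, n = 3 each). The log2 fold change of *HEMA1* was -1.70 (standard error 0.17, 95% interval -2.09 to -1.31), with a limma adjusted p of 0.000177. Ranked from the largest fall, *HEMA1* was at place 183 of the 19839 genes tested.

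The light response of *HEMA1* runs through its promoter, so short stretches upstream of the deposited start of the gene are printed for the member that moved most in each group. The CCAATC element, part of the larger CAAT-box family, was found at 2 places upstream of *HEMA1*, read here along the coding strand, which is the minus strand, from the RefSeq genome TAIR10.1. The first lies at chr1:21626302-21626331, 119 to 114 bases before the start, and the next at chr1:21626243-21626272, 60 to 55 bases before it. Capitals mark the element.
HEMA1 upstream 1: gttctccacccgCCAATCaaattccatcaa
HEMA1 upstream 2: ttagattaccatCCAATCataatcctcaat
CCAATC was searched on both strands in the 300 bases before the start and was present in 12.6% of 23393 such windows. A longer gene record in the newer RefSeq annotation takes in both places, so they may be transcribed rather than promoter sequence.

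*HEMA2* (AT1G09940, chromosome 1, 3236995 to 3239554) encodes a further glutamyl-tRNA reductase, known from roots and other non-green tissue and linked with heme supply. It was at 11.8, 13.0 and 16.7 FPKM in the *fer-4* libraries, against 11.7, 12.01 and 12.8 FPKM in the Col-0 libraries. The groups overlapped, since *fer-4* replicate 1 lay within the Col-0 range. *HEMA2* averaged 13.9 ± 2.55 FPKM in *fer-4* and 12.2 ± 0.557 FPKM in Col-0 (SD, n = 3 each), and the log2 fold change of 0.17 did not pass the test (95% interval -0.13 to 0.48, limma adjusted p = 0.350). The coding sequences of *HEMA1* and *HEMA2* were 83.1% identical with a longest shared run of 49 bases, and the sources used here do not say how reads that match both were counted.

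The shares of the *HEMA* mRNAs differed between the genotypes. *HEMA2* made up 16.9%, 12.4% and 22.1% of the summed FPKM of *HEMA1* and *HEMA2* in the *fer-4* libraries, against 5.12%, 5.06% and 5.42% in the Col-0 libraries. The ratio of *HEMA2* to *HEMA1* was 3.67 times as high in *fer-4* (log2 difference 1.87, standard error 0.29), with no overlap between the libraries. The exact permutation p was 0.1, 2-sided, which is the smallest that 3 libraries against 3 can give, and 0.12 after Benjamini-Hochberg adjustment over the 6 ratios computed. A gene that fell less than *HEMA1* has a higher ratio to it in *fer-4*, so this ratio carries the fall of *HEMA1*. The share of all genes without overlap in their ratio to *HEMA1* was not computed.

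*FLU* (AT3G14110, chromosome 3) encodes the negative regulator that binds glutamyl-tRNA reductase and slows ALA synthesis in the dark. The files give it the locus 4672919 to 4677689 together with AT3G14100, whose gene record overlaps that of *FLU* by 45 bases on the opposite strand. *FLU* was at 76.5, 62.9 and 67.5 FPKM in the *fer-4* libraries, against 84.9, 81.6 and 83.8 FPKM in the Col-0 libraries. Each *fer-4* library lay below each Col-0 library, by a margin that was small beside that of *HEMA1*. The log2 fold change of *FLU* was -0.28 (standard error 0.09, limma adjusted p = 0.0490), and the call was lost under 7 of 15 alternatives, among them leaving out any Col-0 library, where the adjusted p was 0.157, 0.115 and 0.132 without replicates 1, 2 and 3. The neighbour AT3G14100 was at 53.1, 43.3 and 45.6 FPKM in the *fer-4* libraries and at 42.5, 41.6 and 40.9 FPKM in the Col-0 libraries. Its *fer-4* values lay above and not below Col-0, but the log2 fold change of 0.18 did not pass (limma adjusted p = 0.184). Relative to *HEMA1* mRNA, *FLU* mRNA was higher in *fer-4*, with ratios of 1.32, 0.685 and 1.14 against 0.392, 0.362 and 0.376 in Col-0 (2.68-fold, exact permutation p = 0.1, adjusted 0.12). *FLU* itself fell, so this ratio carries the larger fall of *HEMA1*. It is not independent of the *HEMA2* ratio, which has the same divisor.

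Magnesium chelatase has 3 kinds of subunit, and GUN4 is its porphyrin-binding activator. *CHLH* (AT5G13630, *GUN5*, listed in the files as *CCH1*, chromosome 5, 4387334 to 4392227) encodes the large subunit that carries protoporphyrin IX. It was at 183, 309 and 264 FPKM in the *fer-4* libraries, against 584, 583 and 598 FPKM in the Col-0 libraries. All *fer-4* libraries were well below Col-0, with replicate 1 the lowest. *CHLH* averaged 252 ± 63.7 FPKM in *fer-4* and 588 ± 8.06 FPKM in Col-0 (SD, n = 3 each). The log2 fold change of *CHLH* was -1.26 (standard error 0.18, 95% interval -1.67 to -0.85, limma adjusted p = 0.00117), at place 410 from the largest fall.

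Upstream of *CHLH*, also on the minus strand, the window held a G-box, CACGTG, the core bound by factors such as HY5 and the PIFs, and a CCAATC element. The G-box stretch is chr5:4392269-4392298, 59 to 54 bases before the deposited start, and the CCAATC stretch is chr5:4392373-4392402, 163 to 158 bases before it. The source is again RefSeq TAIR10.1, and capitals mark the element.
CHLH G-box: taactattcgtcCACGTGtccttccctctc
CHLH CCAATC: aatctcaatgagCCAATCagaggccagcaa
The G-box reads the same on both strands and was present in 8.27% of the 23393 windows. Both stretches also lie inside the longer gene record of the newer annotation.

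*CHLI1* (AT4G18480, listed as *CHL11*, chromosome 4, 10201672 to 10203469) encodes the ATPase subunit. It was at 352, 304 and 291 FPKM in the *fer-4* libraries, against 331, 355 and 385 FPKM in the Col-0 libraries. The groups overlapped, with *fer-4* replicate 1 inside the Col-0 range. *CHLI1* averaged 316 ± 32.1 FPKM in *fer-4* and 357 ± 27.2 FPKM in Col-0 (SD, n = 3 each), and its log2 fold change of -0.18 did not pass (95% interval -0.43 to 0.08, limma adjusted p = 0.250). After quantile normalization it did pass, at -0.29 with an adjusted p of 0.0373. The coding sequences of *CHLI1* and *CHLI2* were 81.8% identical, with a longest shared run of 44 bases.

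*CHLD* (AT1G08520, listed as *PDE166*, chromosome 1, 2696412 to 2700959) encodes the subunit that forms the AAA+ ring with CHLI. It was at 46.7, 55.1 and 54.1 FPKM in the *fer-4* libraries, against 70.6, 72.4 and 72.1 FPKM in the Col-0 libraries. The groups did not overlap, and Col-0 was tight. *CHLD* fell, with a log2 fold change of -0.47 (standard error 0.09, limma adjusted p = 0.00490), and it passed under all 15 alternatives, as *HEMA1* and *CHLH* did. Its gene record overlaps that of AT1G08530 by 42 bases, and that gene averaged 15.9 FPKM in *fer-4* and 12.03 FPKM in Col-0.

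*GUN4* (AT3G59400, chromosome 3, 21948717 to 21949710) was at 275, 232 and 263 FPKM in the *fer-4* libraries, against 354, 309 and 350.1 FPKM in the Col-0 libraries. Replicate 2 was the lowest library of each genotype, and the groups did not overlap. *GUN4* fell, with a log2 fold change of -0.40 (standard error 0.11, limma adjusted p = 0.0209), a call lost without Col-0 replicate 1 (adjusted p = 0.0974) or Col-0 replicate 3 (adjusted p = 0.0853). In the newer annotation 946 bases of its record overlap *GCN2* (AT3G59410) on the opposite strand. *GCN2* averaged 5.65 FPKM in *fer-4* and 5.97 FPKM in Col-0, so its level was small beside that of *GUN4*. The kit keeps strand, but the sources used here do not say whether counting did.

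Within the chelatase, *CHLH* was lower relative to each of its partners. The ratio of *CHLI1* to *CHLH* was 1.92, 0.987 and 1.10 in the *fer-4* libraries, against 0.567, 0.608 and 0.645 in the Col-0 libraries (2.11-fold). The ratio of *GUN4* to *CHLH* was 1.501, 0.752 and 0.995 in *fer-4*, against 0.606, 0.531 and 0.586 in Col-0 (1.81-fold). The ratio of *CHLD* to *CHLH* was 0.255, 0.179 and 0.205 in *fer-4*, against 0.121, 0.124 and 0.121 in Col-0 (1.73-fold). None of these ratios overlapped between the genotypes, each had an exact permutation p of 0.1 (adjusted 0.12), and they are not independent because all have *CHLH* as the divisor. They carry the fall of *CHLH* itself. The share of all genes without overlap in their ratio to *CHLH* was not computed. By mean, *CHLI1* was the most abundant of the 10 mRNAs in *fer-4*, followed by *GUN4* and *CHLH*. The range of *CHLH* overlapped those of both, and in *fer-4* replicate 2 *CHLH* was above *CHLI1* (309 and 304 FPKM). In Col-0 libraries *CHLH* was the most abundant, above *CHLI1* and *GUN4*, whose ranges overlapped.

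**Figure D2:**
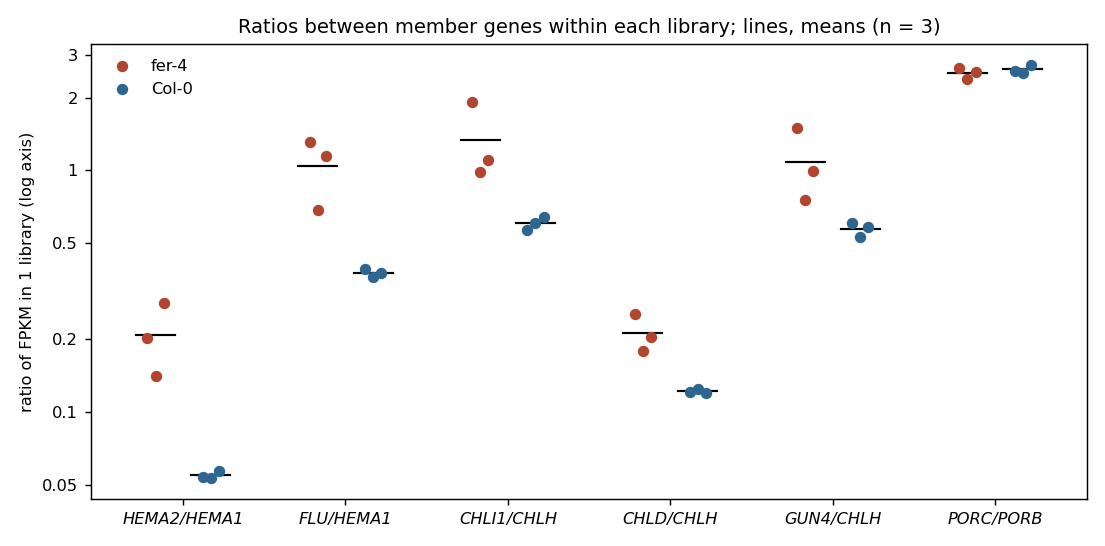
Ratio of FPKM between 2 genes within each library, on a log axis, for *fer-4* (left of each pair) and Col-0 (right); points are the 3 libraries and lines are their means. The ratios over *HEMA1* and over *CHLH* do not overlap between the genotypes, with mean *HEMA2*/*HEMA1* of 0.209 in *fer-4* and 0.0548 in Col-0, and *PORC*/*PORB* overlaps.

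The PORs use light to reduce protochlorophyllide to chlorophyllide. *PORA* (AT5G54190, chromosome 5, 21990912 to 21992812), the form of dark-grown seedlings that light represses, was listed at 0 in all 6 libraries and was not tested. A listed 0 can be absent mRNA or a failed estimate, and these values cannot tell which holds for *PORA*. In all, 4246 genes (15.5%) were at 0 in all libraries, among them 12 of 380 genes described as ribosomal proteins, proteasome subunits, tubulins or histones. Those 12 may be of either kind too. The coding sequence of *PORA* was 83.3% identical to that of *PORB*, with a longest shared run of 44 bases.

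*PORB* (AT4G27440, chromosome 4, 13725546 to 13727353) is expressed in both dark and light. It was at 58.1, 67.0 and 56.5 FPKM in the *fer-4* libraries, against 75.5, 71.1 and 73.2 FPKM in the Col-0 libraries. The groups did not overlap, but *fer-4* replicate 2 came near the lowest Col-0 library. The log2 fold change of *PORB* was -0.28 (standard error 0.09, limma adjusted p = 0.0449), and the call was lost under 7 of 15 alternatives. These included leaving out Col-0 replicate 1, 2 or 3 (adjusted p of 0.158, 0.102 and 0.121), *fer-4* replicate 1 (0.0637) or *fer-4* replicate 3 (0.125). The record of AT4G27450 overlaps that of *PORB* by 71 bases on the opposite strand, and AT4G27450 averaged 69.3 FPKM in *fer-4* and 85.4 FPKM in Col-0.

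*PORC* (AT1G03630, chromosome 1, 907642 to 909376) is the form of green tissue, with mRNA that rises with light intensity. It was at 154, 159.7 and 144 FPKM in the *fer-4* libraries, against 195, 179 and 200.5 FPKM in the Col-0 libraries. The groups did not overlap. *PORC* fell, with a log2 fold change of -0.33 (standard error 0.09, limma adjusted p = 0.0218), a call lost without Col-0 replicate 1 (adjusted p = 0.0962), Col-0 replicate 3 (0.0944) or *fer-4* replicate 3 (0.0675). AT1G03620, whose record overlaps that of *PORC* by 121 bases on the opposite strand, averaged 1.39 FPKM in *fer-4* and 2.21 FPKM in Col-0.

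The balance of *PORB* and *PORC* mRNA showed no such difference. *PORC* made up 72.6%, 70.4% and 71.9% of the summed FPKM of *PORB* and *PORC* in the *fer-4* libraries, against 72.1%, 71.6% and 73.2% in the Col-0 libraries. The log2 difference of the *PORC* to *PORB* ratio was -0.05 (standard error 0.06, exact permutation p = 0.5), and the libraries overlapped.

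*PORC*, on the plus strand, held a G-box at chr1:907586-907615, 44 to 39 bases before the deposited start, and CCAATC on the other strand, where it reads GATTGG, at chr1:907552-907581, 78 to 73 bases before it. Both *PORC* stretches lie inside the longer gene record of the newer annotation, so they may be transcribed rather than promoter sequence. AT1G03620, on the opposite strand, overlaps the first 121 bases of that record. *PORA* and *PORB* each held the evening element AAAATATCT, a motif of dusk-phased clock genes, and were chosen for printing after their values were seen. These stretches are chr5:21992976-21993004 on the minus strand, 182 to 174 bases before *PORA*, and chr4:13725394-13725422 on the plus strand, 142 to 134 bases before *PORB*. All are from RefSeq TAIR10.1, with the element in capitals.
PORC G-box: tagcctggaagaCACGTGtcactaacccaa
PORC CCAATC: aactagtgatctGATTGGttgagggaaaaa
PORA evening element: attatacattAAAATATCTactgacagaa
PORB evening element: acattaaaatAAAATATCTaaggagaagg
The evening element was present in 2.91% of the 23393 windows. Of the 9 members searched (*FLU* shares its deposited locus and was left out), 2 held it, 2 held CACGTG, 5 held CCAATC, 3 held the I-box GATAAG (15% of windows) and 0 held the FHY3 site CACGCGC (1.59% of windows). With windows set before the longer records of the newer annotation, 0 of 10 members held CACGTG (7.09% of 27443 windows) and 2 held CCAATC (12.2%), while *PORA* and *PORB* kept the evening element (2.79%). A match describes the letters only.

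The *fer-4* libraries varied more. The coefficient of variation was larger in *fer-4* for 8 of the 9 members, with a median of 10.04% in *fer-4* and 2.98% in Col-0. Over all genes tested it was larger in *fer-4* for 74.65%, with medians of 13.0% and 6.43%. No *fer-4* library was at one end for every member: replicate 1 was the lowest *fer-4* library for 4 of the 9 members, replicate 2 for 2 and replicate 3 for 3.

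**Figure D3:**
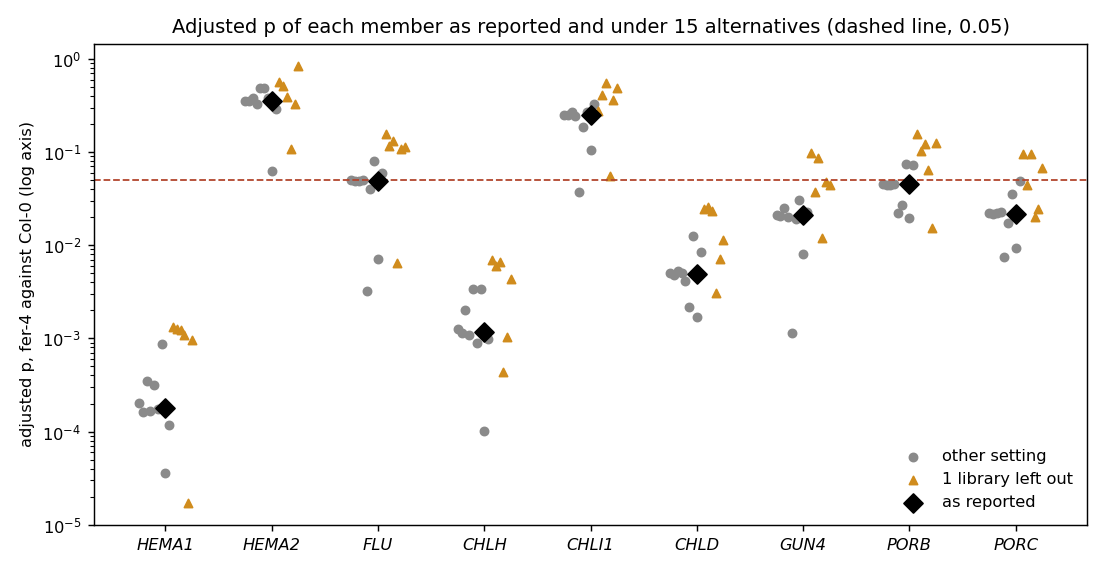
Adjusted p from limma, on a log axis, for each of the 9 members tested, as reported (diamond), with 1 library left out (triangles) and under the other settings (circles); the dashed line is 0.05. *HEMA1*, *CHLH* and *CHLD* lie below the line under all 15 alternatives, and *FLU*, *GUN4*, *PORB* and *PORC* cross it under some.

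Around these genes, the rest of the pathway was read from lists of 43 further genes, of which 40 were tested. Of the 40, 3 rose, 16 fell and 21 did not pass, with a median log2 fold change of -0.27, and 0 met the stricter rule with the 2-fold change. For comparison, 18.0% of all genes tested rose and 16.0% fell, with a median log2 fold change of -0.01. By the stricter rule 6.36% of all genes tested were higher and 2.53% lower. The 16 became 10 without Col-0 replicate 1, 9 without Col-0 replicate 3 and 22 without *fer-4* replicate 1. Over all genes tested, the 3170 that fell became 1938, 2057 and 3708 in these fits. In ALA synthesis, *GSA2*, a glutamate-1-semialdehyde aminotransferase that makes ALA after the HEMA step, fell to 61.8 FPKM in *fer-4* against 93.1 FPKM in Col-0 (log2 fold change -0.60, adjusted p = 0.00286), while the other gene tested there did not pass. From ALA to protoporphyrin IX, 0 of 9 rose and 4 fell (2 without Col-0 replicate 1 or 3, and 7 after quantile normalization), among them *HEMF2*, a coproporphyrinogen oxidase gene (7.07 FPKM in *fer-4* and 9.86 FPKM in Col-0, adjusted p = 0.00701), and *HEME1*, a uroporphyrinogen decarboxylase gene (67.1 FPKM in *fer-4* and 89.4 FPKM in Col-0, adjusted p = 0.00797). In the chlorophyll branch beyond the members, 0 of 8 rose and 6 fell, a count that was 3 when Col-0 replicate 2 or 3 was left out and also when *fer-4* replicate 3 was. *DVR*, the divinyl reductase gene, was at 73.9 FPKM in *fer-4* and 128 FPKM in Col-0 (log2 fold change -0.80, adjusted p = 0.000548). *CHLP*, the geranylgeranyl reductase gene that supplies the phytyl tail, was at 531 FPKM in *fer-4* and 867 FPKM in Col-0 (log2 fold change -0.71, adjusted p = 0.00169).

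The heme, siroheme and bilin branch held the only pathway genes that rose, 3 of 8 tested, and 3 others fell, with a median log2 fold change of -0.03. Of all genes tested 18.0% rose and 16.0% fell. The count that rose was 2 when any Col-0 library or *fer-4* replicate 2 was left out. It was also 2 after quantile normalization or median scaling and with the replicate block. Without an intensity trend, or with a filter of 5 FPKM, it was again 2. *HO3*, a heme oxygenase gene, was at 1.13 FPKM in *fer-4* and 0.455 FPKM in Col-0 (log2 fold change 1.12 on the log2(FPKM + 0.1) scale, adjusted p = 0.0131), a low level in both genotypes. *UPM1*, the methyltransferase gene of siroheme synthesis, was at 57.5 FPKM in *fer-4* and 98.0 FPKM in Col-0 (log2 fold change -0.77, adjusted p = 0.000594). *HO1*, the main heme oxygenase gene of phytochrome chromophore synthesis, was at 80.1 FPKM in *fer-4* and 118 FPKM in Col-0 (log2 fold change -0.56, adjusted p = 0.00189). The ferrochelatase genes, picked after their values were seen, moved in opposite directions. *FC1*, the form expressed in all tissues, was at 52.1, 50.1 and 54.8 FPKM in the *fer-4* libraries, against 32.1, 33.5 and 33.4 FPKM in the Col-0 libraries (log2 fold change 0.66, adjusted p = 0.000414). *FC2*, the form of green tissue, was at 42.2, 49.3 and 47.1 FPKM in the *fer-4* libraries, against 65.0, 64.3 and 69.4 FPKM in the Col-0 libraries (log2 fold change -0.52, adjusted p = 0.00284). Neither gene overlapped between the genotypes, and both passed under all 15 alternatives. *FC1* shares its deposited locus with AT5G26040.

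Among protein partners of the enzymes, 0 of 6 rose and 2 fell, where 18.0% of all genes tested rose and 16.0% fell. *GUN1*, the plastid signaling protein gene, was at 71.5 FPKM in *fer-4* and 104 FPKM in Col-0 (adjusted p = 0.0269). Leaving out Col-0 replicate 1, 2 or 3 ended that call, with adjusted p of 0.0890, 0.0713 and 0.0661. *GBP*, the gene of the protein that binds glutamyl-tRNA reductase, was at 80.8 FPKM in *fer-4* and 102 FPKM in Col-0 (adjusted p = 0.0190), a call lost without Col-0 replicate 1 (0.0717) or 3 (0.0848). Over these 6 genes the count that fell was 0 without Col-0 replicate 1 or 3, 1 without Col-0 replicate 2 and 6 without *fer-4* replicate 1. It was 5 after quantile normalization or median scaling and 6 with array weights. Of the 7 transcription factor genes known to act on chlorophyll genes (*GLK1*, *GLK2*, *HY5*, *PIF1*, *PIF3*, *FHY3* and *FAR1*), 0 rose and 0 fell by limma, and 0 had an unadjusted p under 0.05, with log2 fold changes between -0.25 and 0.07. At that unadjusted p, 4588 of the 19839 genes tested were higher in *fer-4* and 4230 were lower.

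**Figure D4:**
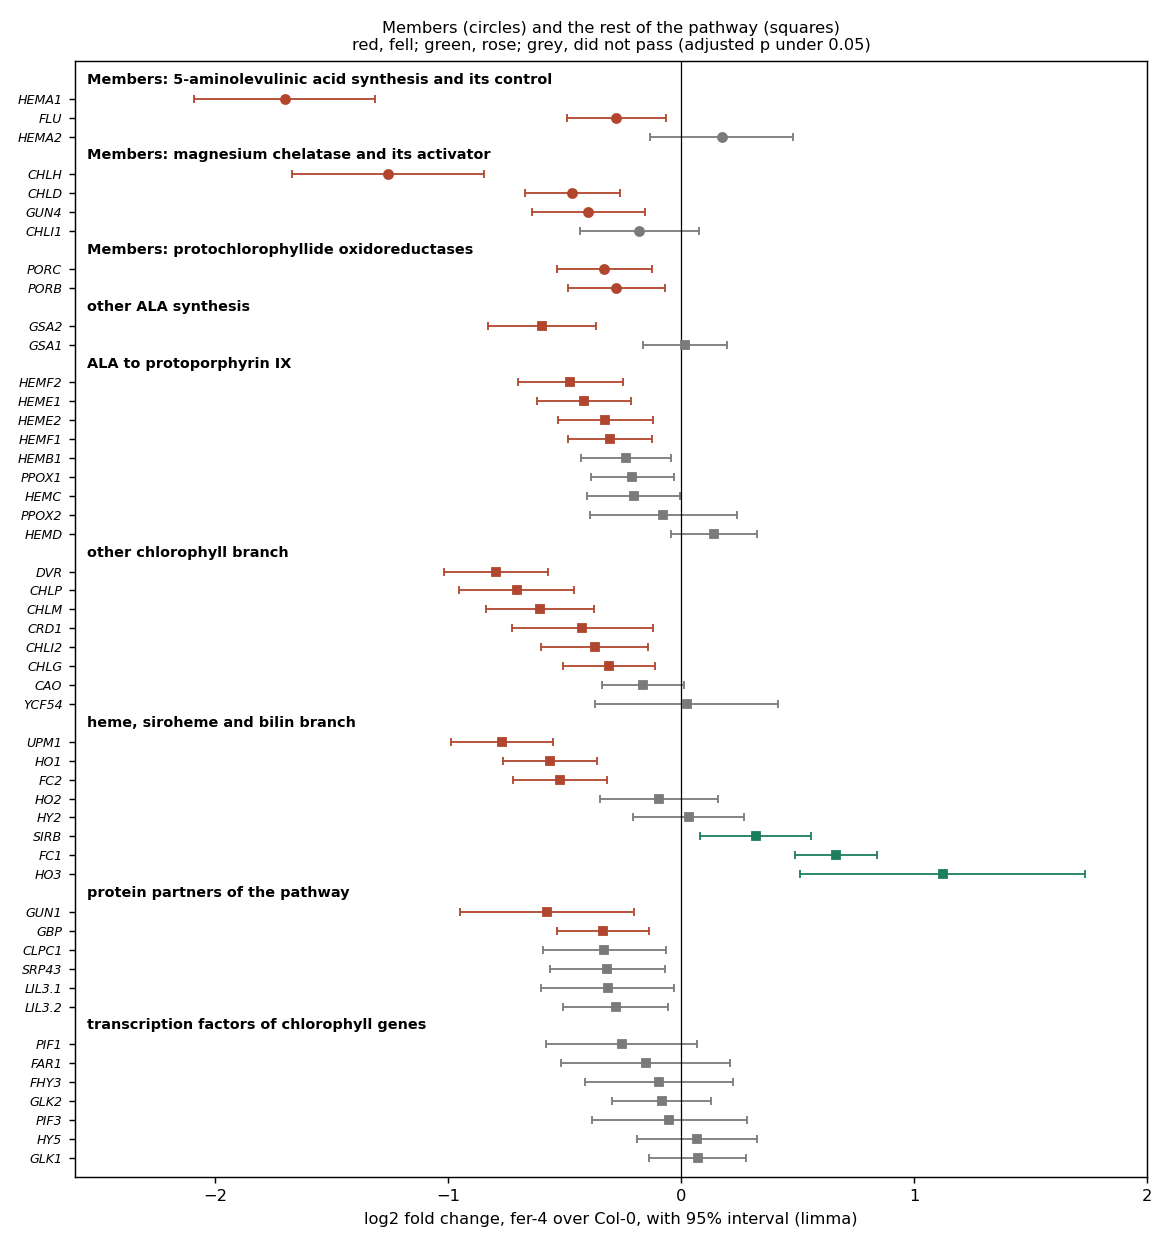
Log2 fold change (*fer-4* over Col-0) and its unadjusted 95% interval from limma, for the 9 members tested (circles) and 40 other genes of the pathway (squares), grouped by step; red fell, green rose and grey did not pass. *HEMA1* at -1.70 and *CHLH* at -1.26 lie farthest left, and the genes that rose are all in the heme, siroheme and bilin list.

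Markers of the cell types that a whole seedling holds also moved. Beside them, 18.0% of all genes tested rose and 16.0% fell. Of 6 mesophyll markers 4 fell and 0 rose, and their summed level was 28199 to 32988 FPKM in *fer-4* libraries and 41128 to 44329 FPKM in Col-0 libraries. The count of 4 was 2 without Col-0 replicate 1 or Col-0 replicate 3, and after quantile normalization 1 mesophyll marker rose. Of 9 root markers 6 fell and 1 rose. Their sum was 3414 to 3495 FPKM in *fer-4* and 2010 to 2263 FPKM in Col-0, and without *PYK10*, the gene that rose, it was 73.9 to 102 FPKM in *fer-4* and 155 to 167 FPKM in Col-0. Of 6 shoot epidermis and guard cell markers 2 rose and 4 fell, with sums of 370 to 379 FPKM in *fer-4* and 527 to 603 FPKM in Col-0, and the count that rose was 1 without Col-0 replicate 1 or 2. No marker was at 0 in any library.

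The members were also set against the summed mesophyll markers of the same library, a measure chosen after the values were seen. Its largest parts were *RBCS1A* and *LHCB1.3*, with means of 11941 and 8186 FPKM in *fer-4*. These 2 markers did not pass the test (limma adjusted p = 0.266 and 0.353), while the other 4 fell, so the measure leans on which markers are summed. Per 1000 FPKM of mesophyll markers, *HEMA1* was at 1.76, 3.15 and 2.095 FPKM in the *fer-4* libraries, against 5.04, 5.48 and 5.02 FPKM in the Col-0 libraries (log2 ratio of means -1.15). On the same measure *CHLH* was at 5.55, 10.6 and 9.36 in *fer-4*, against 13.6, 14.2 and 13.5 in Col-0 (log2 ratio of means -0.69). *HEMA1* and *CHLH* stayed below Col-0 without overlap. *CHLD* and *GUN4* overlapped between the genotypes, and the other 5 members (*HEMA2*, *FLU*, *CHLI1*, *PORB* and *PORC*) lay above Col-0, with log2 ratios of means between 0.18 and 0.72. The summed markers were themselves lower in *fer-4*, so a gene with an unchanged level is higher on this measure. The share of all genes tested that lay above or below Col-0 on it was not computed, so these positions are not particular to the members. The direction of the smaller falls depended on what the level was set against, and the part of cell makeup in them was not tested.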

How the data were processed

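RNA-seq was performed on whole seedlings of *fer-4* and Col-0, grouped by genotype from the sample labels. The table deposited by the authors gives each gene's FPKM in each library. According to the submitters' processing notes, STAR 2.5, Cufflinks 2.2.1 and TAIR10 were used. The labels name a directional library kit. The table also holds 2 columns of group means and the authors' own comparison (fold change, p-value and q-value), which were not used.

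log2(FPKM + 0.1) was fitted with limma 3.58.1 (trend, 2-sided) in R 4.3.3. The 19839 of 27372 genes that averaged 0.5 FPKM or more were tested, with Benjamini-Hochberg adjustment over all of them. Fold changes on this scale understate the change of low genes. Ratios within a library used exact permutation tests. Of 7 pairs planned, *PORA*/*PORB* gave no value. Alternatives varied the pseudocount, filter, scaling, trend, weights, replicate block and libraries. The fit was tested on simulated data with few changed genes and the same spread in both genotypes. These data differ on both points, so that test gives no error rate for them. Python 3.11.15, pandas 2.3.3, numpy 2.4.6, SciPy 1.17.1, matplotlib 3.10.9 and Biopython 1.88 did the rest.

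Members and lists were chosen with earlier results of these data known. Named genes are the members, *FER*, and up to 3 called genes per pathway list (the largest rise and the 2 largest falls); others are said to be chosen after their values were seen. File starts were raised by 1, since of 7465 genes with the same end as in RefSeq TAIR10.1, 3883 started 1 lower. Sequences were read from that genome.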

Additional observations from a re-analysis of the deposited data

How the results depend on the processing

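The calls of *HEMA1*, *CHLH* and *CHLD* held under all 15 alternatives, with log2 fold changes of -1.92 to -1.59, -1.42 to -1.04 and -0.57 to -0.39. With an adjusted p no higher than 0.01 and a 2-fold change required, members that fell numbered 2, pathway genes 0 rising and 0 falling, and markers 0 rising and 5 falling. By this rule 6.36% of all genes tested rose and 2.53% fell. With 1 library left out, members that fell numbered 3 to 6 (3 without Col-0 replicate 1 or 3, 4 without *fer-4* replicate 3) and pathway genes 9 to 22 (10 without Col-0 replicate 1, 9 without Col-0 replicate 3). In the same fits 1938 to 3708 of all genes tested fell, against 3170 as reported. Quantile normalization put 42.2% and median scaling 44.3% of all calls in the higher direction, against 53% as reported, and left the direction of every member as it was. Without an intensity trend *FLU* (adjusted p = 0.0797) and *PORB* (0.0747) lost their calls. Correlations of deviations from the group mean showed no pairing by replicate number (same-number -0.0444, 0.0426 and -0.0660, different-number -0.0369 to 0.0730). They cannot exclude a shared harvest, because the deviations of 3 libraries sum to 0 in each group. With the replicate block 5 members fell, and *FLU* (-0.28, adjusted p = 0.0599) and *PORB* (-0.28, adjusted p = 0.0725) did not pass. No ratio changed direction. With 3 libraries each, the exact tests of ratios cannot go below 0.1, or 0.2 with 1 library left out, and without read counts no counting error can be given.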
